A study of Rattus norvegicus with 12 samples.

Results

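The 5 genes described here encode plasma proteins of the acute phase response: transferrin (Tf), alpha-1-acid glycoprotein (Orm1), alpha-1-antitrypsin (Serpina1), an antichymotrypsin-like serpin (Serpina3n) and alpha-2-macroglobulin (A2m). They are the genes with these symbols in the platform annotation, each with 1 probe, out of 3939 named genes and 7200 probes. They were selected on their log2 ratios at 2 h and 6 h, which were already known. Those ratios, and their place in the fit of all genes, are therefore given as a description, and no test of them is used as support.

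Rats given lipopolysaccharide (LPS), the Gram-negative cell wall component that is sensed through Toll-like receptor 4, were compared with control RNA on 12 arrays of 2 colours. The LPS 2 h group held 3 rats, labelled 1, 2 and 3, and the LPS 6 h group held 3 rats, labelled 2, 4 and 6. Each rat was set against a control pool of the same time, and 1 pool served all 3 rats. The labels give total RNA of Rattus norvegicus, and blood is named in the series title alone. The sources used here give no strain, age, sex, LPS dose or route, and do not say how the control animals were handled or how many formed a pool.

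Each rat was measured on a pair of arrays that the labels call fluor and flip, with the channels of the rat and of the pool exchanged. The values are read as LPS over control pool, which is likely. The labels do not settle it, as they give the channels and neither the dyes nor the direction of the ratio. Il1b, a gene that LPS induces in blood leukocytes, was above 0 on all 12 arrays, whichever channel held the rat, with values of 2.94 to 4.23 at 2 h and 1.67 to 2.50 at 6 h. With the flip arrays multiplied by -1, Il1b would be above 0 on the fluor and below 0 on the flip array of every rat, from the same RNA pair. Over all probes the paired arrays correlated at 0.089, 0.249 and -0.234 in 2 h rats 1, 2 and 3, and at 0.140, 0.066 and -0.047 in 6 h rats 2, 4 and 6. The means of the 5 genes are therefore also given with the flip arrays multiplied by -1, called the other reading below. In that reading the mean of a rat is fluor minus flip divided by the number of arrays in a pair. It thus keeps what differs between the arrays of a pair and cancels what they share. Il1b is at 0.30 at 2 h and 0.22 at 6 h in it. Ratios carry no level, so whether a gene was detected above background, and whether blood cell markers were present, could not be checked.

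In the acute phase response, interleukin-1, interleukin-6 and glucocorticoids act on hepatocytes, which then secrete more of some plasma proteins and less of others. The factors STAT3 and C/EBP beta carry much of this signal to the genes. The liver is the main source of all 5 proteins, while leukocytes also transcribe some of them. A2m is the classic major acute phase protein of the rat, and transferrin, the iron carrier of plasma, is counted among the proteins that fall in many species.

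The promoters are shown because these are the stretches on which that signal acts. The sequences come from RefSeq (build GRCr8), which matched 4 of the 5 genes, and A2m is named only. Each is the 250 bases before the annotated start, printed 5′ to 3′ on the strand of the gene. They are chr8:112695377-112695626 for Tf (minus strand), chr5:81788259-81788508 for Orm1 (plus), chr6:128653126-128653375 for Serpina1 (minus) and chr6:129088142-129088391 for Serpina3n (plus). Capitals mark matches to TTCNNNGAA, the STAT type of site, to TTNNGNAA, a C/EBP type of site, and to TATAAA, all searched on both strands, and no match overlapped another.
Tf: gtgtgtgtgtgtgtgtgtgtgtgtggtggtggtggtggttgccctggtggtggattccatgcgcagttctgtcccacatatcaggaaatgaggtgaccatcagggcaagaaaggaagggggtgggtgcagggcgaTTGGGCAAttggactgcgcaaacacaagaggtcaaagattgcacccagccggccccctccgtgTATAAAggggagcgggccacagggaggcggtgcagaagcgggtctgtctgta
Orm1: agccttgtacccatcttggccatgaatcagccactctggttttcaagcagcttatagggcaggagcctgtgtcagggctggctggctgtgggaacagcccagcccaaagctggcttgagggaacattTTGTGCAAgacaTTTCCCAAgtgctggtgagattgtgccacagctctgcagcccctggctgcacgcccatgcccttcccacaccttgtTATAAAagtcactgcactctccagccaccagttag
Serpina1: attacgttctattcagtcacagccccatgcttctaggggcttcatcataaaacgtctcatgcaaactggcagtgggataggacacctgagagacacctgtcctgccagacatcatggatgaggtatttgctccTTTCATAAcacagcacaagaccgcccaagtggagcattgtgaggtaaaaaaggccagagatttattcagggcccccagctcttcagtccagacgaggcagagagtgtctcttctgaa
Serpina3n: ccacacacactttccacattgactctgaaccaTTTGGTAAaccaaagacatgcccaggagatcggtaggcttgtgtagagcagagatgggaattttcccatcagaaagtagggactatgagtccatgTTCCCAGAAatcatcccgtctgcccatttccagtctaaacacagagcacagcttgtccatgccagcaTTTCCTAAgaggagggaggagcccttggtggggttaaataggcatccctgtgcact

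The STAT type of motif was present in 1 of the 4 promoters, that of Serpina3n (TTCCCAGAA, from 123 to 115 bases before the start), and in 7.67% of 33469 promoters of this length. The C/EBP type was present in all 4, with 2 matches in Orm1 and in Serpina3n and 1 in Tf and in Serpina1, against 37.2% of all promoters. TATAAA was present in Tf and Orm1, 47 and 30 bases before the start at its near end, and in 12.9% of all promoters. A match is a description of the letters and not a site.

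Tf, the iron carrier, was the member with by far the highest ratio at 2 h. In the 2 h rats its log2 ratio was 1.76 on the fluor and 1.24 on the flip array of rat 1. It was 2.03 and 1.61 in rat 2, and 1.60 and 0.42 in rat 3. All 6 arrays thus lay above 0, with the flip array of rat 3 far below the others. At 6 h the same pairs were 0.73 and 0.29 in rat 2, 0.23 and 0.070 in rat 4, and 0.091 and 0.23 in rat 6. Rat means were 1.50, 1.82 and 1.01 at 2 h and 0.51, 0.15 and 0.16 at 6 h.

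The mean log2 ratio of Tf was 1.44 ± 0.41 (SD, n = 3 rats) at 2 h, a 2.72-fold ratio to the pool, and 0.27 ± 0.21 at 6 h, a 1.21-fold ratio. The 6 h mean was lower by 1.17 (log2 ratio -1.17, SE 0.20, limma adjusted p 0.0594), which was not called. This difference also holds any difference between the control pools. Counted from the highest mean, Tf ranked 7 of 3939 genes at 2 h and 157 at 6 h as deposited, and 8 and 1066 in the other reading. As deposited, Tf also varied more between rats than most genes, with an SD larger than that of 98.7% of genes at 2 h and of 96.1% at 6 h. The median SD of all genes was 0.070 at 2 h and 0.059 at 6 h.

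Tf was above 0 on all 12 arrays, as were 3.88% of all genes. Its mean on the fluor arrays was 1.80 at 2 h and 0.35 at 6 h, and on the flip arrays 1.09 and 0.20. The fluor array was the higher in 5 of the 6 rats. In the other reading Tf averaged 0.35 ± 0.21 at 2 h and 0.076 ± 0.14 at 6 h (SD, n = 3), a smaller gap, with ranges of the rats that overlapped.

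**Figure D1:**
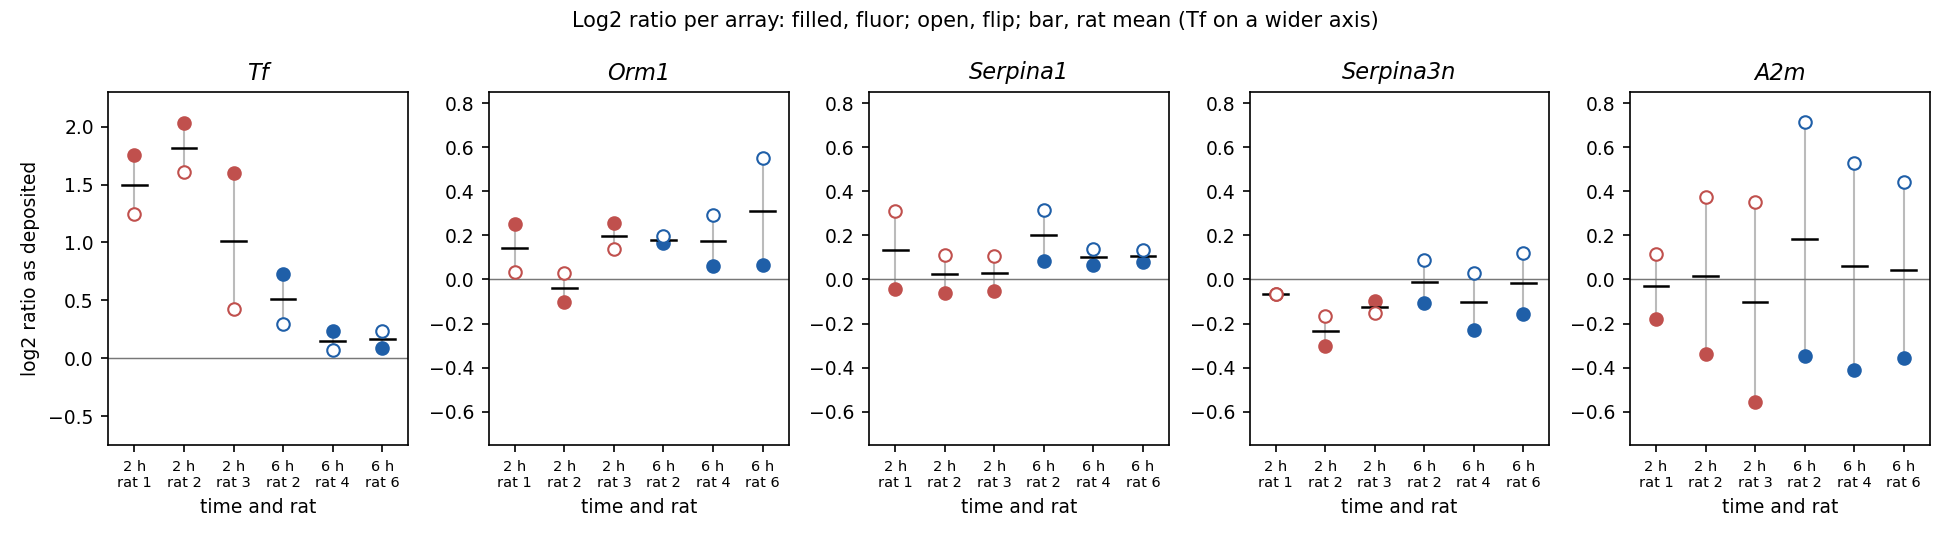
Deposited log2 ratio (vertical axis) of each of the 5 genes in each rat (horizontal axis), red for 2 h and blue for 6 h. Filled points are fluor arrays, open points flip arrays and bars the mean of the pair. Tf, on a wider axis, lies above 0 on 12 arrays with 2 h rat means of 1.01 to 1.82, while the fluor and flip arrays of A2m lie on opposite sides of 0 in every rat.

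Orm1 encodes alpha-1-acid glycoprotein, a plasma carrier of drugs and an acute phase protein of rats and humans. On the fluor and flip arrays at 2 h its log2 ratio was 0.25 and 0.035 in rat 1, -0.10 and 0.029 in rat 2, and 0.25 and 0.14 in rat 3. At 6 h it was 0.16 and 0.20 in rat 2, 0.062 and 0.29 in rat 4, and 0.065 and 0.55 in rat 6. It lay above 0 on 11 of 12 arrays, the fluor array of 2 h rat 2 being the exception. Rat means were 0.14, -0.037 and 0.20 at 2 h and 0.18, 0.18 and 0.31 at 6 h, and the ranges of the times overlapped.

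The mean of Orm1 was 0.10 ± 0.12 at 2 h and 0.22 ± 0.075 at 6 h (SD, n = 3), a 1.17-fold ratio at 6 h. The 6 h minus 2 h difference was 0.12 (SE 0.072). At 6 h the flip arrays averaged 0.35 and the fluor arrays 0.097. The other reading turned the 6 h mean to -0.12 ± 0.11 and left 0.034 at 2 h.

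Serpina1 encodes alpha-1-antitrypsin, the main plasma inhibitor of neutrophil elastase. At 2 h its fluor and flip ratios were -0.041 and 0.31 in rat 1, -0.062 and 0.11 in rat 2, and -0.052 and 0.11 in rat 3. The 3 fluor arrays of 2 h were thus all below 0 and the 3 flip arrays all above it. At 6 h the pairs were 0.084 and 0.32 in rat 2, 0.064 and 0.14 in rat 4, and 0.081 and 0.14 in rat 6, all above 0. Rat means were 0.13, 0.024 and 0.029 at 2 h and 0.20, 0.10 and 0.11 at 6 h.

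Means of Serpina1 were 0.063 ± 0.063 at 2 h and 0.14 ± 0.055 at 6 h, with a 6 h minus 2 h difference of 0.074 (SE 0.051). The ranges of the rats overlapped between the times through rat 1 of 2 h. The fluor array was below the flip array in all 6 rats, as it was in 19.2% of all genes. In the other reading the means were -0.11 ± 0.054 at 2 h and -0.060 ± 0.048 at 6 h, so the sign turned at both times.

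Serpina3n, which lies in the same serpin gene cluster of chromosome 6 as Serpina1, encodes an antichymotrypsin-like protease inhibitor. At 2 h its fluor and flip ratios were -0.064 and -0.067 in rat 1, -0.30 and -0.17 in rat 2, and -0.098 and -0.15 in rat 3. All 6 arrays of 2 h lay below 0. At 6 h the pairs were -0.11 and 0.088 in rat 2, -0.23 and 0.028 in rat 4, and -0.16 and 0.12 in rat 6, so that the fluor arrays stayed below 0 and the flip arrays lay above it. Rat means were -0.066, -0.23 and -0.13 at 2 h and -0.0095, -0.10 and -0.017 at 6 h, with overlapping ranges.

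The mean of Serpina3n was -0.14 ± 0.085 at 2 h, 0.906 of the pool on the linear scale, and -0.042 ± 0.051 at 6 h. The 6 h minus 2 h difference was 0.099 (SE 0.056). The other reading gave -0.013 at 2 h and -0.12 ± 0.021 at 6 h. With the median of neighbouring probes subtracted Serpina3n was at -0.11 at 2 h and -0.00091 at 6 h. The same step put Tf at 1.50 and 0.31, Orm1 at 0.11 and 0.14, and Serpina1 at 0.061 and 0.16.

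A2m, the broad protease inhibitor of rat plasma, gave means near 0 that covered large and opposite ratios on the arrays of each rat. At 2 h its fluor and flip ratios were -0.18 and 0.12 in rat 1, -0.34 and 0.37 in rat 2, and -0.55 and 0.35 in rat 3. At 6 h they were -0.35 and 0.72 in rat 2, -0.41 and 0.53 in rat 4, and -0.36 and 0.44 in rat 6. All 6 fluor arrays were below 0 and all 6 flip arrays above it, a pattern shared by 3.38% of all genes.

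As deposited, A2m averaged -0.038 ± 0.059 at 2 h and 0.096 ± 0.077 at 6 h (SD, n = 3), with rat means of -0.031, 0.016 and -0.10 at 2 h and 0.18, 0.060 and 0.043 at 6 h. The 6 h minus 2 h difference was 0.13 (SE 0.056, limma adjusted p 0.333), and was not called. With neighbouring probes subtracted A2m was at 0.061 at 2 h (limma adjusted p 0.394) and 0.18 at 6 h (0.0436). Its 2 h mean also turned above 0 with scaling (0.048) and with quantile normalization (0.047). The other reading gave means of -0.32 ± 0.16 and -0.47 ± 0.065, the lowest of the 5 genes in that reading at both times. A2m thus averaged near the pool in the reading taken as likely, but from arrays of opposite sign. On the fluor arrays alone A2m was at -0.36 at 2 h (limma adjusted p 0.0114) and -0.37 at 6 h (0.011). On the flip arrays alone A2m was at 0.28 (0.0469) and 0.56 (0.00166). Its negative values in the other reading come from fluor arrays below 0 and flip arrays above 0 in every rat. No fall of A2m is read from them.

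**Figure D2:**
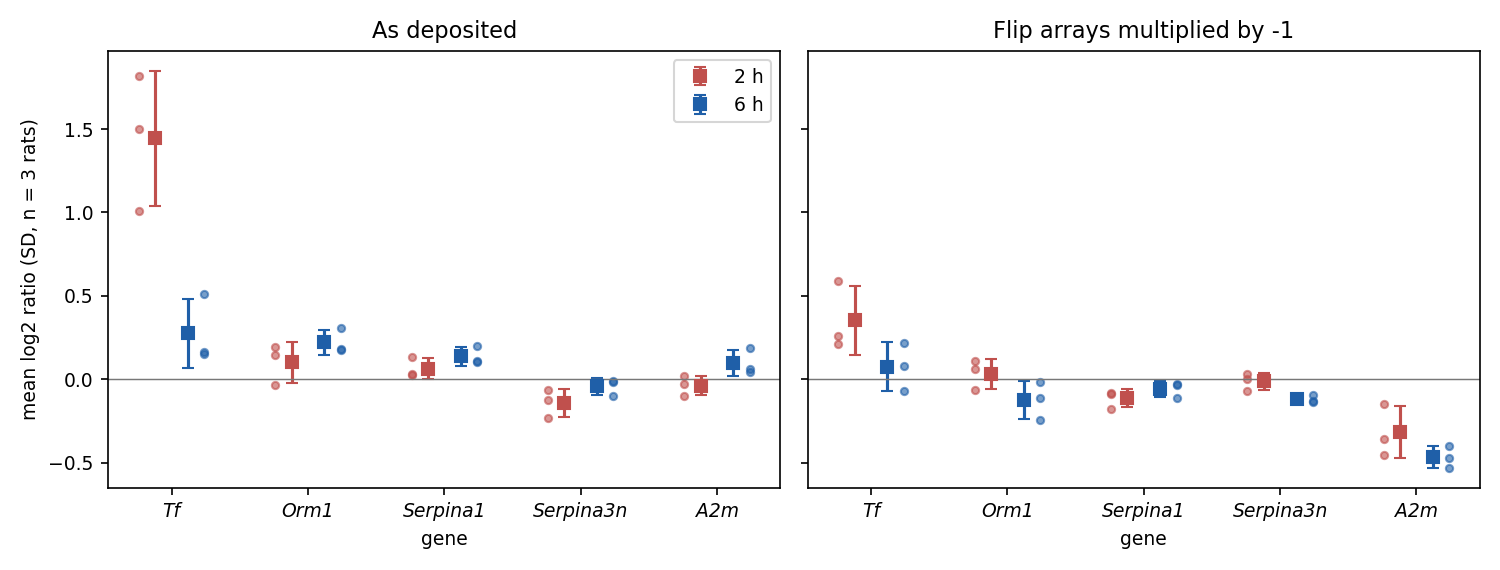
Mean log2 ratio (vertical axis) of the 5 genes at 2 h (red) and 6 h (blue), as deposited on the left and with the flip arrays multiplied by -1 on the right. Squares and bars are the mean and SD of 3 rats and small points the rats. Tf at 2 h is at 1.44 on the left and 0.35 on the right, and A2m at 6 h is at 0.096 on the left and -0.47 on the right.

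As a measure of how far the arrays of a pair stood apart, fluor minus flip was averaged over the 6 rats and divided by the number of arrays in a pair. Its size over all genes had a median of 0.061. A2m was at -0.39, farther from 0 than 98.6% of genes, and Tf at 0.21, farther than 94.8%. Serpina1 was at -0.087 (66.4% of genes smaller), Serpina3n at -0.067 (53.9%) and Orm1 at -0.046 (39.2%). For A2m this quantity was larger than its mean as deposited at either time, whereas for Tf it was smaller than the mean at both.

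**Figure D3:**
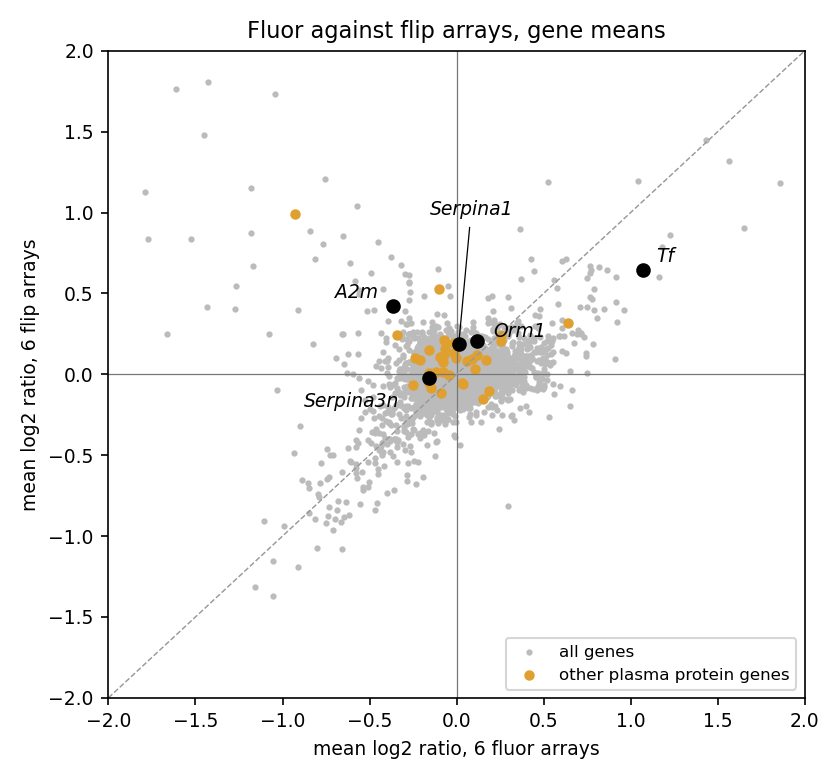
Mean log2 ratio over 6 fluor arrays (horizontal axis) against that over 6 flip arrays (vertical axis) for all genes (grey), the other plasma protein genes (orange) and the 5 genes (black). On the dashed line both are equal, and 12 of 3939 genes lie outside the axes. Tf lies with the genes that are above 0 on both, and A2m at the upper left, with a negative fluor and a positive flip mean.

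As a further description, and not as a test of genes that were chosen on these ratios, the place of the 5 genes in the fit of all genes is given. The threshold for a call was a Benjamini-Hochberg adjusted p under 0.05 from limma over the 3939 genes. As deposited, 2 of the 5 genes passed it at 2 h, Tf above 0 and Serpina3n below 0, where 19.2% of all genes passed, 9.34% above and 9.82% below 0. At 6 h 2 passed, Orm1 and Serpina1, both above 0, where 19.0% of all genes passed, 8.30% above and 10.7% below 0. For 6 h minus 2 h limma called 0 of the 5, with 2 at an unadjusted p under 0.05, and 0.508% of all genes (20, with 569 at an unadjusted p under 0.05). In the other reading Tf, Serpina1 and A2m passed at 2 h, where 14.2% of all genes did, and Serpina3n and A2m at 6 h, where 37.1% did. Nothing is read from these counts. As deposited, the calls of Orm1 and Serpina1 at 6 h ended without any 1 of the 6 h rats, that of Serpina1 also without rat 3 of 2 h. The call of Serpina3n at 2 h ended without any 1 of the 6 rats. On the fluor arrays alone all of these calls ended, and on the flip arrays alone that of Serpina3n did. Those of Orm1 and Serpina3n also ended with the median of neighbouring probes subtracted, and that of Serpina1 with scaling and with quantile normalization.

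The 5 genes did not share 1 pattern over the arrays. Orm1 and Serpina3n were the pair most alike, with a Pearson correlation of 0.83 over 12 arrays, 0.95 over the 6 fluor and 0.79 over the 6 flip arrays. Serpina1 and A2m were at 0.70 over 12 arrays but at -0.0059 within the fluor and 0.026 within the flip arrays. Over 12 arrays Tf was at -0.39 with Orm1, -0.48 with Serpina1, -0.43 with Serpina3n and -0.37 with A2m. Within the fluor arrays the values were 0.063, -0.94, -0.0045 and 0.15 in that order, so only Serpina1 and, near 0, Serpina3n kept the sign. Within the flip arrays they were -0.73, 0.072, -0.68 and -0.62, so the sign turned for Serpina1 alone. These arrays share pools and, in pairs, the rat, and fluor or flip alone sets part of a correlation, so they are descriptions.

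The genes most like each member were taken as the 3 with the highest Pearson correlation over the 12 arrays. For Tf these were Il1b, the cytokine interleukin-1 beta (0.957), the ubiquitin-like gene Ubl3 (0.940) and the chemokine Ccl6 (0.939), and 7 genes exceeded 0.9. On the fluor and flip arrays Il1b was at 4.22 and 3.88, 4.23 and 3.99, and 4.15 and 2.94 in the 2 h rats, so rat 3 had the lowest flip array for Il1b as for Tf. In the 6 h rats Il1b was at 2.50 and 1.76, 2.13 and 1.67, and 2.16 and 2.05. Ccl6 averaged 0.40 at 2 h and 0.041 at 6 h, and Ubl3 0.29 and -0.0048, so all 3 had a higher mean at 2 h, like Tf. The 3 genes were picked by their correlation with Tf on these same arrays. Their shared traits with Tf thus follow from the choice and are no separate result.

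**Figure D4:**
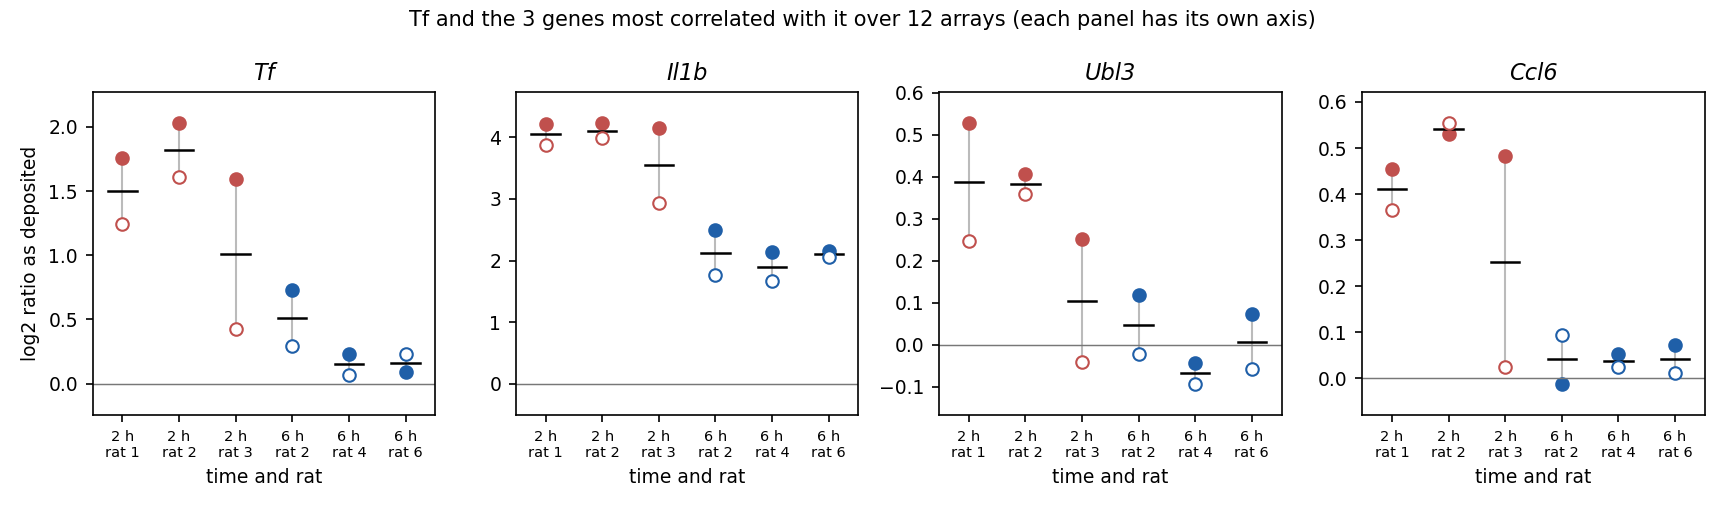
Deposited log2 ratio (vertical axis, each panel on its own scale) of Tf, Il1b, Ubl3 and Ccl6 in each rat (horizontal axis). Filled points are fluor and open points flip arrays, red for 2 h and blue for 6 h, and bars are rat means. In all 4 genes the 2 h rat means lie above the 6 h rat means, and the flip array of 2 h rat 3 is the lowest array of that time. Il1b, Ubl3 and Ccl6 were picked for their likeness to Tf on these arrays.

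For A2m the most alike were Kdr, a receptor of vascular endothelial growth factor (0.970), Otc, the urea cycle enzyme ornithine transcarbamylase (0.969), and Pvalb, parvalbumin (0.969), and 111 genes exceeded 0.9. Each of the 3 had a negative mean on the fluor and a positive mean on the flip arrays, -0.77 and 0.80 in Kdr, -1.43 and 1.81 in Otc, and -0.29 and 0.31 in Pvalb. This too follows from their choice by likeness to A2m. For Serpina3n they were the iron reductase gene Cybrd1 (0.980), the dipeptidase Dpep1 (0.951) and Atp5mk (0.909). For Orm1 they were the 5-lipoxygenase gene Alox5 (0.889), Gng7 (0.880) and Filip1l (0.869), and for Serpina1 they were Arpc1b (0.904), Bcat2 (0.8995) and Cdk17 (0.899). Alox5 was above 0 on all 12 arrays, with means of 0.14 at 2 h and 0.23 at 6 h.

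The other genes of the acute phase and of liver plasma proteins gave few calls in the fit of rat means as deposited. Of 78 listed, 35 were measured. At 2 h 3 passed above 0 and 0 below (8.57% of the measured, with a median of 0.0011 against -0.0070 over all genes). At 6 h 3 passed above 0 and 1 below (11.4%, with a median of 0.042 against 0.0069), against 19.2% and 19.0% of all genes at these times. When 1 rat at a time was left out the count ran from 1 to 4 at 2 h and from 0 to 5 at 6 h. The processing moved it too. At 2 h it was 8 with scaling and 8 with neighbouring probes subtracted, where 963 and 808 of all genes passed. At 6 h it was 10 on fluor and 18 on flip arrays alone, where 1202 and 1063 of all genes passed. With neighbouring probes subtracted it was 9 at 6 h (790 of all genes), but 3 with all probes one by one and 2 with trend and robust eBayes.

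Cfi, complement factor I, rose to 0.59 ± 0.29 at 2 h (limma adjusted p 0.017), and was at 0.37 at 6 h (0.0708). Without rat 2 or rat 3 of 2 h its adjusted p was 0.1 or 0.0679. Itih4, an inter-alpha-trypsin inhibitor heavy chain, rose by 0.28 ± 0.095 at 2 h (limma adjusted p 0.00398) and by 0.18 at 6 h (0.0213), the latter at 0.0874 to 0.108 without any 1 of the 6 h rats. C8b, a subunit of the complement pore, rose by 0.29 ± 0.16 at 2 h (limma adjusted p 0.0146, and 0.0749 without rat 2 of 2 h) and by 0.21 ± 0.017 at 6 h (0.0443, and up to 0.163 in the 4 left-out runs that lost the call). All 3 genes, like Tf, were above 0 on all 12 arrays. In the other reading none of these calls held, with Cfi at 0.24 (limma adjusted p 0.103), Itih4 at 0.059 (0.191) and C8b at -0.018 at 2 h. That reading cancels what the arrays of a pair share, so ratios alike on both shrink in it. On the fluor and flip arrays alone the 2 h means were 0.83 and 0.35 in Cfi, 0.34 and 0.23 in Itih4, and 0.27 and 0.31 in C8b.

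Mbl1, a mannose-binding lectin, was at 0.27 ± 0.14 at 6 h (limma adjusted p 0.0124, and 0.0832 or 0.0702 without 6 h rat 2 or 6), but at -0.32 in the other reading. Apoc2 fell by 0.11 at 6 h (limma adjusted p 0.0293, and up to 0.142 in the 4 left-out runs that lost the call). Alb, the albumin gene, was at -0.044 and -0.021 at 2 h and 6 h, Crp at -0.15 and -0.16, Cp at -0.10 and -0.11, and the fibrinogen chains Fga, Fgb and Fgg between 0.066 and 0.14, none past the threshold. Hpx, hemopexin, was split between the arrays like A2m, at -0.93 on the fluor and 0.99 on the flip arrays, and so was Apcs, serum amyloid P, at -0.34 and 0.24. In 17 of the 35 genes (48.6%) the fluor array was below the flip array in all 6 rats, as in A2m and Serpina1. In the other reading 4 passed below 0 and 0 above at 2 h (11.4%), and 13 below and 2 above at 6 h (42.9%), against 14.2% and 37.1% of all genes. At 6 h the share thus lay under that of all genes in the fit of rat means as deposited and over it in the other reading.

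**Figure D5:**
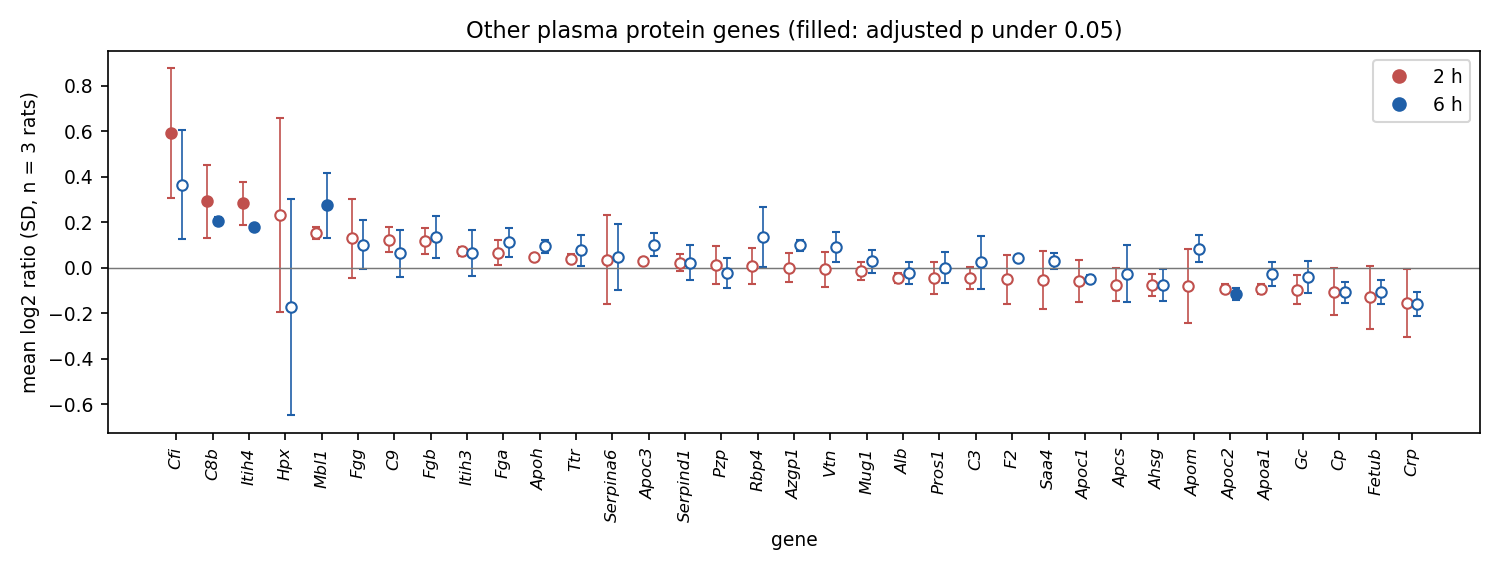
Mean log2 ratio (vertical axis, bars are the SD of 3 rats) of the 35 other measured plasma protein genes (horizontal axis) at 2 h (red) and 6 h (blue), in order of the 2 h mean. Filled points passed a limma adjusted p under 0.05. Cfi, C8b and Itih4 lead at 2 h, and most genes lie within 0.2 of 0.

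Relatives of the serpin and macroglobulin members passed at neither time in the fit of rat means as deposited. Of 35 listed serpins other than the members 8 were measured, and limma called 0 at 2 h (0 at an unadjusted p under 0.05) and 0 at 6 h (1 at an unadjusted p under 0.05), with medians of 0.016 and 0.032. Serpina3c, another gene of the Serpina3 group, was at 0.0086 at 2 h and 0.050 at 6 h. Of 13 listed genes of the macroglobulin family and its receptor 3 were measured, C3, Mug1 and Pzp, and limma called 0 at both times (0 at an unadjusted p under 0.05 at either). They averaged -0.046, -0.014 and 0.013 at 2 h and 0.024, 0.028 and -0.022 at 6 h. In the other reading 1 serpin passed above 0 and 1 below at 2 h, and 2 above and 4 below at 6 h. In the macroglobulin family 0 passed at 2 h in that reading, and Mug1 (-0.13) and Pzp (-0.22) passed below 0 at 6 h. At 6 h 5 serpins also passed on fluor and 3 on flip arrays alone, where 1202 and 1063 of all genes did. Quantile normalization gave 1 serpin. In the macroglobulin family 1 passed on fluor and 2 on flip arrays alone at 6 h, and 2 with neighbouring probes subtracted.

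Among 18 measured of 43 listed proteases of leukocytes, the kind of enzyme that serpins and A2m bind, 2 passed above 0 and 0 below at 2 h (11.1%, against 19.2% of all genes), and 5 above and 1 below at 6 h (33.3%, against 19.0%). The other reading gave 2 above and 3 below at 2 h (27.8%, against 14.2%) and 4 above and 8 below at 6 h (66.7%, against 37.1%). Gzmc, a granzyme of cytotoxic lymphocytes, rose by 1.17 ± 0.13 at 2 h (limma adjusted p 0.000573) and 1.87 ± 0.25 at 6 h (8.06e-05), against 0.26 (0.219) and 0.42 (0.045) in the other reading. Ctsc, the protease that activates granzymes and neutrophil elastase, rose by 0.48 ± 0.082 at 2 h (limma adjusted p 0.000491) and by 0.17 at 6 h, the latter lost without any 1 of the 6 h rats and on the flip arrays alone (0.021). At 6 h Mcpt9 rose by 0.57 ± 0.28 (limma adjusted p 0.00867, and 0.0556 without 6 h rat 2), and Ctsh fell by 0.22 ± 0.082 (0.00944, and 0.0656 without 6 h rat 2). Neither call held in the other reading (0.027 and -0.075), which cancels what the arrays of a pair share. Mcpt9 was at 0.59 on the fluor and 0.54 on the flip arrays, and Ctsh at -0.30 and -0.15. Ctsl (0.19) and Mcpt1 (0.22) also passed above 0 at 6 h, but in the other reading they were at -0.24 and -0.23. Mcpt1 lost its call without 6 h rat 2 or 6.

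Of 37 listed genes of iron transport and storage, the pathway of Tf, 15 were measured, of which 4 passed above 0 and 1 below at 2 h (33.3%, against 19.2% of all genes) and 2 above and 2 below at 6 h (26.7%, against 19.0%). Turned flip arrays gave 2 above and 2 below at 2 h (26.7%, against 14.2%) and 4 above and 4 below at 6 h (53.3%, against 37.1%). Fth1, the ferritin heavy chain, rose by 0.50 ± 0.11 at 2 h (limma adjusted p 0.0108) and 0.51 ± 0.25 at 6 h (0.00902). Its means were 0.87 and 0.94 on the fluor arrays alone, but 0.12 (limma adjusted p 0.486) and 0.069 (0.642) on the flip arrays alone. Lcn2, which binds bacterial iron carriers, rose by 0.69 ± 0.33 at 2 h (limma adjusted p 0.00586) and 0.61 ± 0.0096 at 6 h (0.00856, and 0.0556 without 6 h rat 2). Its 2 h mean was 0.54 on the fluor and 0.85 on the flip arrays, and thus -0.15 in the other reading. Blvra, biliverdin reductase, fell by 0.83 ± 0.17 at 2 h (limma adjusted p 0.000573) and by 0.84 ± 0.085 at 6 h (0.000314), against 0.058 and 0.19 in the other reading. The heme synthesis genes Alas1 (0.45) and Alas2 (0.46) rose at 2 h, each call being lost without 2 h rat 2 or 3, and Slc40a1, the iron exporter ferroportin, fell by 0.15 at 6 h, lost without any 1 of the 6 h rats.

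Of 50 listed genes that signal to the acute phase genes 15 were measured, and 5 passed above 0 and 1 below at each time (40%, against 19.2% of all genes at 2 h and 19.0% at 6 h). Turning the flip arrays gave 0 above and 3 below at 2 h (20%, against 14.2%) and 1 above and 3 below at 6 h (26.7%, against 37.1%). Il1b rose by 3.90 ± 0.31 at 2 h (limma adjusted p 6.7e-06) and 2.05 ± 0.13 at 6 h (8.42e-05), against 0.30 (0.081) and 0.22 (0.116) in the other reading. Nr3c1, the glucocorticoid receptor, rose by 0.53 ± 0.12 at 2 h (limma adjusted p 0.0012) and 0.99 ± 0.093 at 6 h (9.21e-05), against 0.13 (0.0543) and 0.18 (0.00965) in the other reading. Il6r, the interleukin-6 receptor, fell by 0.36 ± 0.060 at 2 h (limma adjusted p 0.00398) and 0.39 ± 0.12 at 6 h (0.00263), and in the other reading was at -0.16 (0.0369) and -0.045 (0.376). Il1r2, the decoy receptor of interleukin-1, was at 0.62 and 0.73, past the threshold at both times, but at -0.094 at 6 h in the other reading. Il6st (0.16) and Cebpd (0.31) passed at 2 h, the first lost without 2 h rat 1 or 2 and the second without any 1 of the 2 h rats, and Cebpb (0.35) and Tnf (0.22) passed at 6 h, the first lost without 6 h rat 2 or 6 and the second without 6 h rat 2. In that reading Cebpd was at -0.097 and Tnf at -0.18. Over the pathway lists, 4 of the 16 genes called at 2 h and 4 of the 20 called at 6 h kept their call and sign in the other reading. A ratio alike on both arrays of a pair cancels there, as that of Il1b does, so this count cannot show which calls are sound. On the fluor arrays alone 14 of the 16 and 13 of the 20 kept call and sign, and on the flip arrays alone 9 and 15.

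Marker genes of cell types were measured on the same arrays. In ratios of whole samples fewer cells of a type and less RNA per cell cannot be told apart. Of 22 hepatocyte markers 13 were measured, of which 1 passed above 0 and 0 below at 2 h and 2 above and 0 below at 6 h, with medians of -0.012 and 0.10 (7.69% and 15.4% of the measured, against 19.2% and 19.0% of all genes). In the other reading 0 passed above 0 and 3 below at 2 h (23.1%, against 14.2% of all genes). At 6 h 0 passed above and 6 below (46.2%, against 37.1%), and the medians were -0.064 at 2 h and -0.10 at 6 h. The genes that passed were Tdo2, tryptophan dioxygenase (0.31 ± 0.13 at 2 h, limma adjusted p 0.0325, and 0.0558 to 0.154 without 2 h rat 1, 2 h rat 2 or 6 h rat 2, then 0.84 ± 0.18 at 6 h, 0.000579), and G6pc1 at 6 h (0.21, limma adjusted p 0.0207, and 0.0684 to 0.125 without 6 h rat 2 or 4). Of 24 neutrophil markers 6 were measured. Of these 4 passed above 0 at 2 h and 3 at 6 h (66.7% and 50%), with medians of 0.60 and 0.29. For these and the cell types that follow, the shares of all genes were again 19.2% at 2 h and 19.0% at 6 h. Of 20 T cell markers 7 were measured, of which 2 passed below 0 at 2 h and 4 at 6 h (28.6% and 57.1%). The T cell medians were -0.16 and -0.11. Of 12 B cell markers 2 were measured, and both passed below 0 at 2 h and 1 at 6 h. Of 16 monocyte markers 3 were measured, of which 1 passed below 0 at 2 h and 2 at 6 h (33.3% and 66.7%). Of 20 erythroid markers 11 were measured. At 2 h 5 of them passed above 0 and 1 below (54.5%), and at 6 h 1 above and 3 below (36.4%). Of 14 platelet markers 2 were measured, of which 1 passed above 0 at 2 h. In the other reading 14.2% of all genes passed at 2 h and 37.1% at 6 h. The counts of markers that passed above and below 0 in it at 2 h, then 6 h, were as follows. For neutrophil markers they were 1 and 0, then 2 and 0. They were 0 and 2, then 0 and 1, for T cell markers, and 0 at both times for B cell markers. Monocyte markers gave 0, then 1 below, and erythroid markers 4 above and 2 below, then 6 and 2. The platelet markers gave 1 above at each time. Their part in the ratios of the 5 genes was not tested.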

How the data were processed

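The authors deposited a log2 ratio for each probe on each array. Base 2 was settled from the values: 100% of linear ratios were whole multiples of 1e-04 (tolerance 0.05 of a step), against 10.2% and 9.4% for the natural log and log10. Array medians were between -0.020 and 0.0083, and 0 values were missing. How the authors scanned, corrected and normalized the arrays, and with which dyes, is not given in the sources used here, and there were no intensities. The number of arrays limits the precision.

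Gene names came from the platform's own annotation, brought up to date by gene identifier against the GRCr8 table. A single symbol was given to 4190 of the 7200 probes (4184 matched that table), several to 46 and none to 2964. Probes of a gene were averaged (236 genes with more than 1). Both arrays of a rat hold the same RNA pair and were averaged, so the rat is the replicate (n = 3 per time), and the labels do not say more about how samples were collected. The pool is 1 control sample, and its own spread is left out of every test. Rats labelled 2 at both times were treated as different.

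Rat means of all genes were fitted with limma 3.58.1 (lmFit, eBayes, R 4.3.3), 1 mean per time, 4 residual degrees of freedom, Benjamini-Hochberg adjustment over 3939 genes, two-sided. The fit was tested on simulated data. Named are the 5 members, up to the 8 called genes with the largest means of each pathway list, measured markers past the threshold, and the 3 genes most correlated with each member. Single genes of these lists that did not pass were also named, after their values were seen. The members and all lists were chosen with earlier results of these data known. Alternatives were the flip arrays multiplied by -1, fluor or flip arrays alone, all arrays with an orientation term and rats as random blocks, scaling, quantile normalization, subtraction of the median of 5 probes on each side, repeated values set to missing, the probe with the largest ratio, all probes one by one, eBayes with trend and robust, each time alone, and leaving out each rat.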

Additional observations from a re-analysis of the deposited data

Results flagged for a closer look

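The 6 h and 2 h ratios of Il1b, the gene most like Tf over the arrays, differed by a test of the difference itself. Its 6 h mean was lower than its 2 h mean, with a 6 h minus 2 h log2 ratio of -1.86 (SE 0.15, limma adjusted p 0.00735). All 3 rats of 2 h lay above all 3 rats of 6 h. The difference also holds any difference between the control pools. With the flip arrays multiplied by -1 it was -0.080, from means of 0.30 at 2 h and 0.22 at 6 h, and it did not pass the threshold in that reading. Il1b was listed with earlier results of these data known, and its likeness to Tf was found on these same arrays. The test is therefore no independent evidence on Tf.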

How the results depend on the processing

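Of 3939 genes 755 were called at 2 h, 749 at 6 h and 20 for 6 h minus 2 h, with 2, 2 and 0 of the 5 members. At 2 h the count was 1142 on fluor arrays alone, 336 on flip arrays alone, 500 with each time alone and 323 to 668 without 1 rat. Members called at 2 h were 1 with neighbouring probes subtracted, with all probes one by one, with each time alone and without any 1 rat. At 6 h the count was 1461 with the flip arrays multiplied by -1, 1202 on fluor arrays alone and 306 to 927 without 1 rat. On fluor arrays alone 1 member was called at 6 h, A2m below 0 (-0.37), and neither Orm1 nor Serpina1 was. With scaling, with quantile normalization and with all probes one by one it was 1, Orm1, and 0 to 2 were called without 1 rat. For 6 h minus 2 h the count was 0 with the flip arrays multiplied by -1, 4 on fluor and 5 on flip arrays alone, 131 with all arrays and an orientation term, 8 with quantile normalization, 10 with neighbouring probes subtracted, 11 with all probes one by one, 33 with trend and robust eBayes, and 2 to 31 without 1 rat, with 1 member (Tf) in the fit of all arrays and 0 to 1 without 1 rat. The 6 h minus 2 h value of Tf (-1.17) was -0.28 with the flip arrays multiplied by -1, -1.44 on fluor and -0.89 on flip arrays alone, -1.39 with quantile normalization and -1.38 to -0.98 without 1 rat. With the flip arrays multiplied by -1, Tf at 2 h was 0.35, Orm1 at 6 h -0.12 and Serpina1 at 6 h -0.060. That reading cancels what the arrays of a pair share, so a turned sign in it alone does not weigh against a call. It also turned the sign at 2 h of C8b (-0.018), Blvra (0.058), Lcn2 (-0.15) and Cebpd (-0.097). At 6 h it turned Apoc2 (0.0053), Itih4 (-0.0063), Mbl1 (-0.32), Ctsl (-0.24), Mcpt1 (-0.23), Blvra (0.19), Il1r2 (-0.094) and Tnf (-0.18). Fluor arrays alone turned Mbl1 (-0.046), Ctsl (-0.049) and Mcpt1 (-0.0053) at 6 h. The cause was not tested. No paired analysis was possible because the groups share only 1 rat number. The 6 h minus 2 h contrast with each time alone gave no value, and dim probes could not be filtered without intensities.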
